A study of Homo sapiens with 3 samples.

Results

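Chromosomes 2 and 3 carried 1178 of the 7899 SRA sites (14.9%) and 2150 of the 14131 p68 sites (15.2%) mapped in NTERA2, a line of human embryonal carcinoma cells that resemble pluripotent stem cells. The members described here are all 3328 sites whose chromosome was 2 or 3, out of 22030 sites in both lists. This pair of chromosomes was chosen by a measured value, the small share of their SRA sites that had a p68 site within 500 bp, so that this share is given below as a description and is not tested. SRA sites came from ChIRP-seq, in which biotinylated oligonucleotides complementary to the SRA RNA recover the RNA with the chromatin around it, and probes against LacZ served as the negative control. p68 sites came from ChIP-seq with a rabbit antibody against p68. Both assays used unmodified NTERA2 cells grown in DMEM with serum, with no treatment, and each had 3 biological replicates, which the authors had intersected into 1 list per assay. Input chromatin was not analysed here. The lists hold positions on hg19 without scores, so that the read depth behind a site is unknown, no spread between replicates can be given, and all intervals cover counting error only. Genes at the sites are not named, as no annotation of hg19 was used.

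SRA, the steroid receptor RNA activator, is a long non-coding RNA first described as a coactivator of steroid receptors. p68, encoded by DDX5, is a DEAD box RNA helicase that binds SRA and takes part in transcription and RNA processing. SRA was studied in these cells for its contacts with trithorax group complexes, which methylate histone H3 at lysine 4, and with polycomb repressive complex 2, which methylates it at lysine 27. The comparison of the 2 site lists addresses where along the chromosomes a listed SRA site has a listed p68 site nearby and where it has none. A missing p68 site in the list does not show that p68 was absent, and nearness does not show binding to each other.

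The SRA list reads the genome through 29 designed probes of 20 nt, of which 3 are shown to make clear what was pulled down. They are the first of the set, with a GC content of 50%, and the first in order at the highest (70%) and at the lowest (35%) GC content, each of which another probe shares.
SRA_1: ggctgatgtcatcacatacc
SRA_12: tgttgcctgcggaggcgagg
SRA_23: agtctactttgggaaaaagt
The probes are complementary to the RNA, and their matches to chromosomes 2 and 3 were not searched because a genome of hg19 was not used here. The authors did screen their SRA data for homology to the probes and reported no significant number of matches at up to 2 mismatches.

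Chromosome 2 held 621 SRA sites and 1320 p68 sites, or 0.47 SRA sites for each p68 site. Chromosome 3 held 557 and 830, or 0.671. SRA sites covered 1.42 Mb of chromosome 2 and 1.26 Mb of chromosome 3, while p68 sites covered 2.01 and 1.01 Mb. The median SRA site was 2016 bp wide on chromosome 2 (quartiles 1564 and 2695 bp) and 2018 bp on chromosome 3 (1546 and 2633 bp), against 2287 bp on the remaining chromosomes (1648 and 3390 bp). The median p68 site measured 1220 bp on chromosome 2 (957 and 1727 bp), 1087 bp on chromosome 3 (910 and 1406 bp) and 1190 bp elsewhere (947 and 1650 bp). SRA sites thus had almost the same median on both chromosomes. The larger p68 median of chromosome 2 came with a crowded stretch described below, without which it was 1132 bp.

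Because sites often lie next to each other, numbers were compared after joining sites of a list that lie within 10 kb, and each joined group was counted once. Chromosome 2 then had 517 SRA groups and 1030 p68 groups, and chromosome 3 had 460 and 702. The odds of a group being SRA rather than p68 were 0.766 times as high on chromosome 2 as on chromosome 3 (95% interval 0.654 to 0.897, adjusted p = 0.0016, two-sided Fisher's exact test with Benjamini-Hochberg adjustment over 3 comparisons). Against all the other chromosomes, chromosome 3 was richer in SRA groups (odds ratio 1.31, 1.16 to 1.48, adjusted p = 5.5e-05, same exact test), and for chromosome 2 no difference was detected (0.982, 0.878 to 1.10, adjusted p = 0.76, exact test). The call between chromosomes 2 and 3 was lost when sites within 50 kb were joined (adjusted p = 0.066, exact test) and when the p68-rich stretch of chromosome 2 described below was left out (0.858, adjusted p = 0.091). The other chromosomes include 10 with fewer than 100 SRA sites each (146 SRA and 1683 p68 sites in all). Without these, chromosome 2 was poorer in SRA groups than the others (0.845, adjusted p = 0.0043, exact test) and chromosome 3 richer by less (1.13, adjusted p = 0.046, exact test). With all chromosomes kept, the odds ratio of chromosome 2 changed direction with the setting. It ran from 0.828 for single sites to 1.13 with sites within 50 kb joined. These tests treat groups as independent and rest on 1 list per assay. The share that chose the chromosomes depends on the numbers of both lists, so that the tested ratios are not independent of the choice. The tests also pool the other chromosomes and leave out the spread between them. Among chromosomes with at least 100 SRA sites, SRA sites per p68 site ran from 0.167 on chromosome 19 to 1.54 on chromosome 17.

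Divided into 1 Mb windows counted from the first base, with each site assigned by its midpoint, chromosome 2 gave 243 windows and chromosome 3 gave 198. A window of chromosome 2 held 2.56 SRA sites on average (median 1) and 5.43 p68 sites (median 3). The averages on chromosome 3 were 2.81 SRA sites (median 1) and 4.19 p68 sites (median 2). SRA sites were absent from 98 windows of chromosome 2 (40.3%) and 79 of chromosome 3 (39.9%). Over the 12 other chromosomes with at least 100 SRA sites, 50.2% of windows had none, although their average was higher, at 4.66 SRA sites per window. Windows with at least 10 SRA sites held 34.5% of the SRA sites of chromosome 2 and 37.2% of those of chromosome 3, against 74.0% on these 12 chromosomes. The most SRA sites in a window were 20 on chromosome 2 and 22 on chromosome 3, and 69 elsewhere. SRA sites of chromosomes 2 and 3 were therefore spread over more of the windows at lower numbers per window. For p68, windows with at least 10 p68 sites held 56.4% and 47.5% of the sites, and 72.5% on the 12 other chromosomes.

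Windows that held at least 5 SRA sites and at least 2 times as many SRA as p68 sites were termed SRA-rich, and windows meeting the reverse rule p68-rich. SRA-rich windows numbered 12 on chromosome 2 (4.94%) and 12 on chromosome 3 (6.06%), beside 4.36% of the windows of all chromosomes. p68-rich windows numbered 66 on chromosome 2 (27.2%) and 33 on chromosome 3 (16.7%), beside 16.7% of all windows. The share of p68-rich windows was thus above that of all chromosomes on chromosome 2 and equal to it on chromosome 3. On the 12 other chromosomes with at least 100 SRA sites, 7.87% of windows were SRA-rich and 23.1% p68-rich. Both lists were present in 133 windows of chromosome 2 and 109 of chromosome 3, while 12 and 10 windows held SRA sites alone and 71 and 54 held p68 sites alone. The numbers of rich windows depend on the rule, and with at least 10 sites of the leading list 9 SRA-rich and 48 p68-rich windows were left on the 2 chromosomes.

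**Figure D1:**
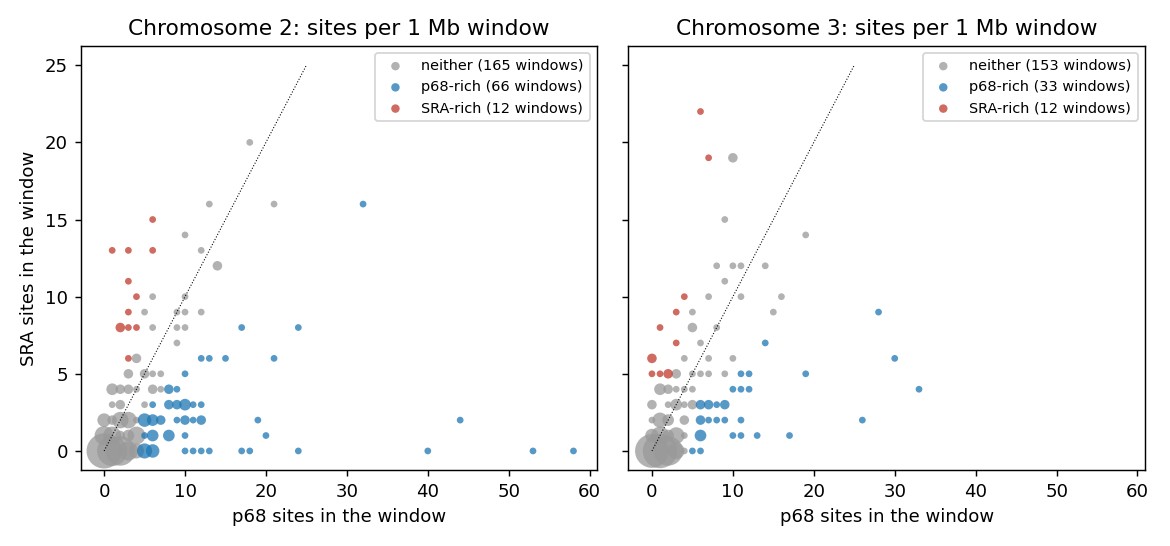
Number of SRA sites (vertical axis) against number of p68 sites (horizontal axis) in each 1 Mb window of chromosome 2 (left) and chromosome 3 (right), with SRA-rich windows in red, p68-rich in blue and the rest in grey, the area of a point proportional to the number of windows at that place and the dotted line marking equal numbers. On chromosome 2 a few windows with 40 to 58 p68 sites lie on or near the baseline, with at most 2 SRA sites each, and on chromosome 3 no window exceeds 33 p68 sites.

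The window of chromosome 2 with most SRA sites lay between 232 and 233 Mb and held 20 SRA and 18 p68 sites. It was followed by the window from 42 to 43 Mb, with 16 SRA and 21 p68 sites, that from 47 to 48 Mb, with 16 and 32, and that from 220 to 221 Mb, with 16 and 13. These windows held many sites of both lists, and 2, 1, 1 and 1 of their SRA sites had p68 within 500 bp, beside 7.09% of all SRA sites of the chromosome. On chromosome 3 the window from 184 to 185 Mb led with 22 SRA and 6 p68 sites, none of the SRA sites having p68 within 500 bp. Next came 3 windows with 19 SRA sites each. Those from 72 to 73 Mb and from 186 to 187 Mb had 10 p68 sites each, with 1 and 0 shared SRA sites, and that from 193 to 194 Mb had 7 p68 sites and 4 shared SRA sites, the most in any window of the 2 chromosomes along with 2 windows of chromosome 2. The 5 neighbouring windows of chromosome 3 from 183 to 188 Mb held 12, 22, 14, 19 and 5 SRA sites in order of position, of which 1, 0, 1, 0 and 0 were shared.

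Stretches of at least 2 neighbouring SRA-rich windows were few. Chromosome 2 had 3 of them, from 8 to 10 Mb (16 SRA and 7 p68 sites), from 11 to 13 Mb (26 and 4) and from 174 to 176 Mb (20 and 6). Chromosome 3 had 1, from 111 to 114 Mb, with 16 SRA and 3 p68 sites. Of their SRA sites, 3 of the 26 between 11 and 13 Mb on chromosome 2 had p68 within 500 bp and none in the other stretches, beside 5.94% of all SRA sites of the 2 chromosomes.

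p68-rich stretches were more numerous, with 17 on chromosome 2 (42 windows, 579 p68 and 80 SRA sites) and 7 on chromosome 3 (18 windows, 260 and 63). The longest ran from 23 to 30 Mb on chromosome 2 and held 246 p68 sites, 18.6% of those of the chromosome, beside 2 SRA sites. Its windows held 10, 40, 44, 58, 53, 17 and 24 p68 sites in order of position. In this stretch p68 sites averaged 35.1 per Mb, against 4.55 on the rest of chromosome 2. They were also wider, with a median of 2124 bp against 1132 bp, and had a median spacing of 10.3 kb between midpoints against 78.2 kb. Another p68 site lay within 10 kb for 72.8% of them, and for 24.9% of the p68 sites elsewhere on the chromosome. None of the SRA sites in the stretch was shared. Read depth and copy number of the stretch were not measured here, and their part in these values was not tested. The end of chromosome 2, from 239 to 243 Mb, was also p68-rich, with 55 p68 and 2 SRA sites.

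On chromosome 3 the p68-rich stretches with most p68 sites lay close together, from 47 to 50 Mb (87 p68 and 15 SRA sites) and from 51 to 55 Mb (40 and 16). The single window with most p68 sites, from 48 to 49 Mb, held 33 p68 and 4 SRA sites. The window from 32 to 33 Mb came next, with 30 p68 and 6 SRA sites, and 3 of these SRA sites had p68 within 500 bp. The window from 49 to 50 Mb held 28 p68 and 9 SRA sites, 2 of them shared. On chromosome 2 the 4 windows with most p68 sites (58, 53, 44 and 40) all lay in the longest p68-rich stretch and held 0, 0, 2 and 0 SRA sites. The next, from 47 to 48 Mb, had 32 p68 sites, close to the top windows of chromosome 3, and held 16 SRA sites. Scarcity of SRA beside dense p68 was not limited to that stretch. The windows of chromosome 2 from 240 to 243 Mb held 12, 13 and 18 p68 sites and no SRA site. On chromosome 3 the window from 47 to 48 Mb held 26 p68 and 2 SRA sites.

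Long runs of windows had no SRA site. On chromosome 3 the longest extended from 74 to 89 Mb over 15 windows, in which the p68 list had 19 sites and at most 3 in a window. It was followed by a run from 90 to 97 Mb (3 p68 sites) and by 2 runs of 5 windows, from 102 to 107 Mb (4 p68 sites) and from 165 to 170 Mb (11 p68 sites, at most 6 in a window). Between 74 and 107 Mb both lists were therefore sparse, with p68 never exceeding 3 sites per window. The longest such run on chromosome 2 covered 7 windows from 89 to 96 Mb, with 18 p68 sites, and runs of 5 windows lay from 114 to 119 Mb (4 p68 sites), from 123 to 128 Mb (12) and from 137 to 142 Mb (10). Neither list had a site from 90 to 95 Mb on chromosome 3 or from 93 to 95 Mb on chromosome 2. Whether reads can be placed in these runs was not examined, so that missing sites need not mean missing binding.

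Across windows, numbers of SRA and p68 sites were less correlated on chromosome 2 (Pearson r = 0.27, Spearman rho = 0.48, 243 windows) than on chromosome 3 (0.47 and 0.62, 198 windows). Over the windows of the 12 other chromosomes with at least 100 SRA sites the values were 0.49 and 0.61. The value of chromosome 2 depended on the p68-rich stretch from 23 to 30 Mb, without which it was 0.54 (Spearman 0.55). These correlations describe windows of the same 2 lists, which share mappability and base composition and are not independent of their neighbours.

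The widest SRA sites of chromosome 2 measured 7620 bp (positions 44769450 to 44777069), 7491 bp (173094704 to 173102194) and 7484 bp (171355629 to 171363112). None had p68 within 500 bp, the nearest p68 sites being 95.5, 6.30 and 19.9 kb away. On chromosome 3 the widest measured 8954 bp (185794499 to 185803452), 6785 bp (185496001 to 185502785) and 6766 bp (112018466 to 112025231), with p68 39.1, 22.9 and 469 kb away. The widest p68 sites of chromosome 2 all lay in its longest p68-rich stretch and measured 8084 bp (29183866 to 29191949), 7682 bp (27624005 to 27631686) and 7263 bp (27616577 to 27623839), more than 1 Mb from any SRA site. Those of chromosome 3 were narrower, at 4445 bp (47246453 to 47250897), 3297 bp (170103429 to 170106725) and 3286 bp (49991784 to 49995069), and lay 268, 245 and 42.6 kb from SRA. None of these sites was shared, as held for most sites of either list (5.94% of SRA and 3.12% of p68 sites of the 2 chromosomes were shared).

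Crowded groups were rare among SRA sites. Another SRA site lay within 10 kb for 29.1% of SRA sites on chromosome 2 and 29.8% on chromosome 3, compared with 51.3% on the remaining chromosomes. With single sites counted as groups, only 3 of 977 groups had at least 5 SRA sites (17 of 1178 sites). Elsewhere 134 of 4476 groups did (858 of 6721 sites). The largest, of 7 sites, spanned 36.4 kb of chromosome 2 (175626356 to 175662781) and contained no p68 midpoint. The next on that chromosome had 4 sites each, with 2 p68 midpoints between 16113594 and 16131135 and none between 238502575 and 238526003. Chromosome 3 had groups of 5 sites between 14317065 and 14344271, with 1 p68 midpoint, and between 55545268 and 55575633, with none, followed by groups of 4 sites, of which the first by position, between 57184125 and 57197332, held none. For p68 the neighbour shares were 33.8% on chromosome 2, 26.6% on chromosome 3 and 39.2% elsewhere. The largest p68 group of chromosome 2 had 13 sites (26209216 to 26288185, inside the longest p68-rich stretch), followed by a group of 10 (47610669 to 47677011) and several of 8, the first of them by position from 25411005 to 25442114. On chromosome 3 the largest had 8 sites (32844564 to 32880952), 7 (48130723 to 48170450) and 6 (48928230 to 48945428). In the group of 8 sites on chromosome 3, 2 sites had SRA within 500 bp, and in the other p68 groups named none had, beside 3.12% of all p68 sites of the 2 chromosomes.

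A p68 site within 500 bp was found for 44 SRA sites of chromosome 2, which is 7.09% (95% Wilson interval 5.32 to 9.38%), and for 26 of chromosome 3, which is 4.67% (3.21 to 6.75%). Together they made 70 of 1178 SRA sites, or 5.94% (4.73 to 7.44%), beside 11.6% of all SRA sites and 12.6% (11.8 to 13.4%) of those on the remaining chromosomes. The lower share is what the chromosomes were selected on. Seen from p68, 42 sites of chromosome 2 (3.18%, 2.36 to 4.27%) and 25 of chromosome 3 (3.01%, 2.05 to 4.41%) had SRA within 500 bp, beside 6.55% of all p68 sites and 8.24% of those on the 12 other chromosomes with at least 100 SRA sites. The intervals of chromosomes 2 and 3 overlapped in both views. Next to the limit, the largest gaps counted as shared were 426 bp on chromosome 2 and 460 bp on chromosome 3, and the smallest left out were 577 and 553 bp. The nearest p68 site was a median of 43.8 kb from an SRA site on chromosome 2, 39.8 kb on chromosome 3 and 19.7 kb elsewhere. The reverse distance, from a p68 site to the nearest SRA site, had a median of 157 kb on chromosome 2 and 73.1 kb on chromosome 3. Within 10 kb, 22.5% of SRA sites on chromosome 2 and 21.0% on chromosome 3 had a p68 site, against 36.8% elsewhere, and within 100 kb 73.8%, 74.1% and 84.0%. Most SRA sites of these chromosomes thus had a p68 site in the same region and not beside them.

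Among the 14 chromosomes with at least 100 SRA sites, chromosome 3 had the second lowest share and chromosome 2 the fifth lowest. Chromosome 17 was lower than both, with 2.71% (1.48 to 4.92%), and chromosomes 8 (6.33%, 3.47 to 11.3%) and 20 (6.43%, 3.63 to 11.2%) lay between them. Low sharing was thus not limited to chromosomes 2 and 3, and the intervals of these 5 chromosomes overlapped for every pair of neighbours in the order.

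To set the share beside what the local density of p68 gives, all p68 sites of a chromosome were displaced together by fixed offsets of 100 kb to 1 Mb in steps of 100 kb, in both directions, which made 20 lists. On chromosome 2 the displaced lists gave 13 to 30 SRA sites with p68, 21.3 on average (3.43%), and the 44 found were 2.07 times that mean and above every displaced list. On chromosome 3 they gave 10 to 28, 18.0 on average (3.23%), and the 26 found were 1.44 times the mean, with 2 displaced lists reaching 26 or more. For both chromosomes together the lists gave 28 to 52, 39.3 on average (3.34%), and the 70 found were 1.78 times the mean. On the remaining chromosomes 847 SRA sites were shared against a mean of 567.5 in displaced lists (8.44%), a ratio of 1.49. Both the share found and the share in displaced lists were therefore lower on chromosomes 2 and 3. Over the 14 chromosomes the ratio between them ran from 1.02 on chromosome 20 to 2.61 on chromosome 9, with chromosome 3 tied with chromosome 19 at 1.44 for the third lowest and chromosome 2 eleventh from the lowest. The displaced lists overlap in content and give a range, not a p-value. When midpoints instead of edges had to lie within 500 bp, 5 SRA sites were found against 3 to 15 in displaced lists, a ratio of 0.549.

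**Figure D2:**
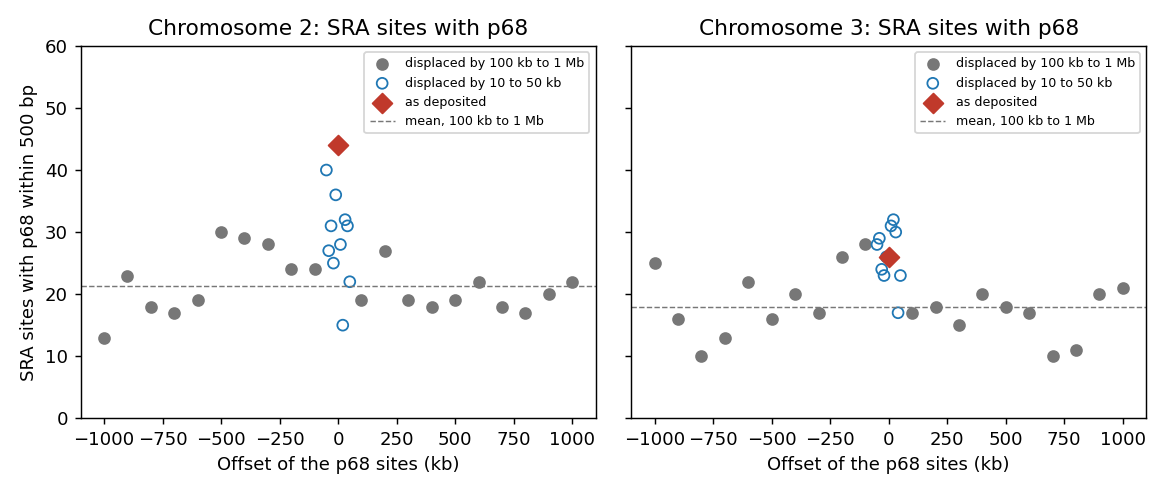
Number of SRA sites having p68 within 500 bp (vertical axis) when all p68 sites are displaced by the offset on the horizontal axis (kb), for chromosome 2 (left) and chromosome 3 (right). The deposited positions (diamond) gave 44 on chromosome 2, above all other points, and 26 on chromosome 3, inside the spread of the points at offsets of 10 to 50 kb.

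With shorter offsets of 10 to 50 kb, in steps of 10 kb, the deposited positions of the 2 chromosomes fell in different places. On chromosome 2 the 10 lists gave 15 to 40 shared SRA sites (mean 28.7), all below the 44 found. On chromosome 3 they gave 17 to 32 (mean 26.3), and 6 of the 10 lists reached or exceeded the 26 found, a ratio of 0.989. On the remaining chromosomes the 10 lists gave 625 to 705, all below the 847 found (ratio 1.30). The number shared on chromosome 3 therefore lay within the range of these lists and that of chromosome 2 above it, and the difference between the chromosomes was not tested.

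**Figure D3:**
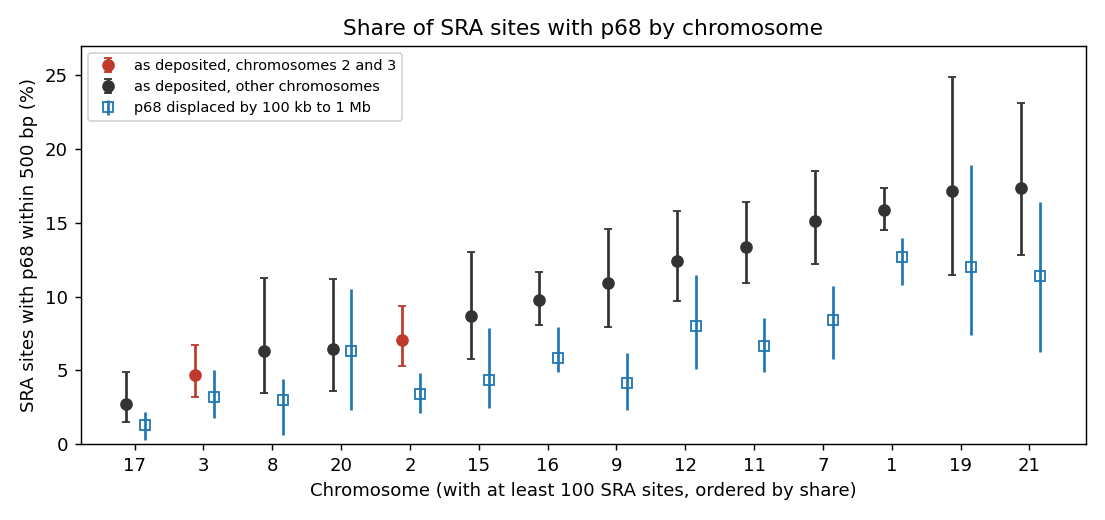
Share of SRA sites (percent) that have p68 within 500 bp, for each chromosome with at least 100 SRA sites, ordered from lowest to highest. Filled circles give the deposited positions with 95% Wilson intervals, and open squares the mean of 20 lists with p68 displaced by 100 kb to 1 Mb, with bars to the lowest and highest list. Chromosomes 3 (4.67%) and 2 (7.09%) stand toward the left, where the displaced lists are low as well (3.23% and 3.43%).

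Sharing was highest in windows with many p68 sites. Of the SRA sites of chromosomes 2 and 3 in windows with 1 to 4 p68 sites, 3.70% were shared (2.18 to 6.23%, 13 of 351), and the remaining chromosomes had 4.06% (3.01 to 5.46%). With 5 to 9 p68 sites per window the values were 4.36% (2.70 to 6.96%, 16 of 367) and 6.32% (5.21 to 7.64%). In windows with 10 or more p68 sites they were 9.88% (7.37 to 13.1%, 41 of 415) and 17.4% (16.3 to 18.6%), and these windows held 16.5 p68 sites on average on chromosomes 2 and 3 and 22 elsewhere. They contained 35.2% of the SRA sites of chromosomes 2 and 3 and 60.4% of those elsewhere. These shares are the value that chose the chromosomes, split by window, and are given as a description. By class of window, 11.2% of the SRA sites in p68-rich windows of chromosomes 2 and 3 were shared (7.81 to 15.8%, 27 sites), 4.80% of those in SRA-rich windows (2.70 to 8.40%, 11 sites) and 4.52% of those in windows of neither class (3.22 to 6.31%, 32 sites). Elsewhere the same classes had 21.4%, 7.34% and 13.5%. Windows with more p68 sites are likelier to hold one near any given position, and both groupings of windows use p68 numbers. Displaced lists were not counted by window, so that these shares do not separate closeness to SRA from p68 density.

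The 70 shared SRA sites were scattered over 49 windows, 31 on chromosome 2 and 18 on chromosome 3, with at most 4 in a window. The windows with 4 lay from 70 to 71 Mb and from 208 to 209 Mb on chromosome 2 and from 193 to 194 Mb on chromosome 3. In the last of these, 3 neighbouring SRA sites (from 193847090 to 193851938, from 193852549 to 193854413 and from 193856280 to 193858832) had p68 sites at their edges, from 193851535 to 193852486 and from 193858712 to 193859795. The first of the p68 sites bridged 2 SRA sites, overlapping one by 404 bp and lying 62 bp from the next. A similar arrangement was found on chromosome 2, where the p68 site from 208758199 to 208759120 overlapped the SRA site from 208755623 to 208758636 by 438 bp and lay 105 bp from that beginning at 208759226.

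The shared sites formed 71 pairs of an SRA and a p68 site, of which 50 overlapped and 21 were apart by 7 to 460 bp (median 203 bp). Where sites overlapped the median overlap was 383 bp, which covered a median of 16.6% of the SRA site and 29.8% of the p68 site. In 41 of the 50 overlapping pairs the p68 midpoint fell beyond the edge of the SRA site, and midpoints were a median of 1470 bp apart over all pairs. The p68 site lay toward higher positions in 40 pairs and toward lower positions in 31. Most overlapping pairs on these chromosomes were therefore formed by a p68 site at the border of an SRA site. Shared SRA sites had a median width of 1969 bp and unshared ones 2019 bp, whereas on the remaining chromosomes the shared sites were the wider ones (2586 and 2240 bp).

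The pairs with the largest overlap included p68 sites lying whole inside an SRA site. On chromosome 3 the SRA site from 195455571 to 195459103 contained the whole p68 site from 195456000 to 195457791 (1792 bp). The SRA site from 183205351 to 183209834 contained that from 183208242 to 183209554 (1313 bp), and the SRA site from 149938069 to 149941478 contained that from 149939139 to 149940382 (1244 bp), their midpoints being 13 bp apart. The fourth pair, at 192133277 to 192135599, overlapped by 763 bp, and the fifth, at 49377701 to 49378837, by 678 bp. On chromosome 2 the SRA site from 121465293 to 121467897 contained the p68 site from 121465811 to 121467251 (1441 bp), and that from 726774 to 730297 contained the one from 727835 to 729180 (1346 bp), with midpoints 28 bp apart. The SRA site from 43445966 to 43450564 overlapped p68 by 1256 bp, that from 69944267 to 69946183 by 720 bp and that from 47580825 to 47582799 by 635 bp. The whole p68 site lay within the SRA site in 6 of the 71 pairs, and no SRA site lay within a p68 site.

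On both chromosomes p68 midpoints were densest in the first 500 bp outside SRA sites. Inside SRA sites their density was 2.82 per Mb on chromosome 2 (exact Poisson interval 0.769 to 7.23, 4 midpoints) and 3.97 on chromosome 3 (1.29 to 9.27, 5 midpoints). In the first 500 bp outside there were 33.5 (20.5 to 51.8, 20 midpoints) and 28.2 (15.8 to 46.5, 15 midpoints). At 10 to 50 kb the density had fallen to 8.49 (7.46 to 9.62) and 8.80 (7.68 to 10.0). The interval inside SRA sites thus lay below that in the first 500 bp on each chromosome. From 500 to 1000 bp, chromosome 2 had 27.8 per Mb (15.9 to 45.1, 16 midpoints) and chromosome 3 had 3.87 (0.469 to 14, 2 midpoints). The order was reversed from 1 to 2 kb, with 10.6 on chromosome 2 (5.5 to 18.6, 12 midpoints) and 17.7 on chromosome 3 (10.5 to 28, 18 midpoints). The remaining chromosomes had higher densities at every distance, with 11.9 inside (10.4 to 13.6), 55.8 in the first 500 bp (344 midpoints) and 14.5 at 10 to 50 kb (2784 midpoints). The choice of chromosomes with few shared sites fixes part of this difference near SRA sites, and it was not tested.

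**Figure D4:**
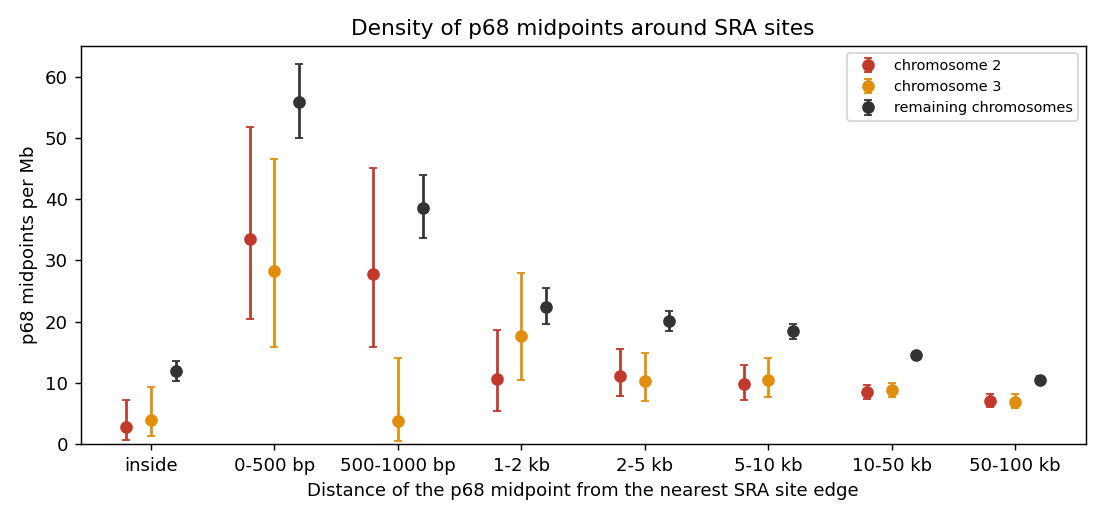
Number of p68 midpoints per Mb (vertical axis) inside SRA sites and in bins of distance from the nearest SRA edge (horizontal axis), for chromosome 2, chromosome 3 and the remaining chromosomes, with exact Poisson 95% intervals. In all 3 groups the number per Mb is highest in the first 500 bp outside SRA sites, and chromosomes 2 and 3 lie below the remaining chromosomes in each bin.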

How the data were processed

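The deposited lists give, per the labels and the study's methods, positions of sites in other units than counts: chromosome, start and end in bp on hg19, with no score. The authors aligned single-end reads, removed duplicates and reads of low mapping quality, called peaks with MACS at a stricter p-value for p68 than for SRA, intersected the lists of 3 replicates and subtracted LacZ sites from the SRA list. The submitters' processing notes name CASAVA 1.8.2. A site missing from 1 replicate is therefore absent, and depth per sample is unknown.

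Sites were used as deposited, and positions are printed with the first base as 1. Sites of different lists were termed shared if no more than 500 bp, the distance in the methods, separated their nearest edges. The paper reported a larger share of all SRA sites as also occupied by p68 than the 11.6% found here. With gaps up to 2 kb the share here was 16.2%. The source of the difference was not tested. Percentages have 95% Wilson intervals and densities exact Poisson intervals. Groups of sites were compared with Fisher's exact test and Benjamini-Hochberg adjustment over 3 comparisons. Displaced lists used fixed offsets and no random draw. Named for each chromosome and list were the 3 widest sites, the largest groups joined within 10 kb, the 3 windows with most sites, the 3 longest runs without SRA and the 5 pairs with the largest overlap, with windows and runs tied with the last one added and tied groups taken by position. Other windows, stretches and pairs were named after their values were seen. The chromosomes, rules and lists were chosen with earlier results of these data known. Functions were tested on simulated data. Calculations used Python 3.11.15, numpy 2.4.6, scipy 1.17.1 and matplotlib 3.10.9. Start sites, GC content and gene names need hg19 and were not run.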

Additional observations from a re-analysis of the deposited data

How the results depend on the processing

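No paired analysis was possible because each assay has a single list without replicate columns, so that no setting leaves out a replicate. Leaving out the p68-rich stretch of chromosome 2 and leaving out chromosomes with fewer than 100 SRA sites were chosen after the data were seen, and start sites were not run. Precision is limited to counting error.

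The share of SRA sites with p68, 5.94%, was 4.16% when sites had to overlap, 9.51% when gaps up to 2 kb counted, 0.424% for midpoints at most 500 bp apart (5 sites), 0.34% with at least 50% of the site covered (4 sites) and 3.39% for narrow sites. The share of p68 sites with SRA, 3.12%, was 2.28% for overlap and 5.16% for a gap of 2 kb. These settings change the reach of a site by construction. The ratio to displaced lists, 1.78, was 1.27 for offsets of 10 to 50 kb, and below 1 for midpoints at most 500 bp apart (0.549, 5 sites found against 3 to 15 in displaced lists), where the cause was not tested. It was between 1.57 and 1.8 for overlap, a gap of 2 kb, SRA sites within 10 kb counted once and without the stretch, and 1.78 with SRA displaced, which is the same by construction.

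SRA-rich windows, 24 of 441 under the rule reported, numbered 3 of 89 with 5 Mb windows, 9 with at least 10 sites, 13 with at least 3 times the other list and 50 with more than the other list. p68-rich windows, 99 of 441, numbered 39 of 89 with 5 Mb windows, a larger share of fewer windows, and 48 of 441 with at least 10 sites. The odds ratio of SRA groups between chromosomes 2 and 3, 0.766, was 0.822 with sites within 50 kb joined and 0.858 without the stretch, neither past the threshold in the exact test (adjusted p = 0.066 and 0.091), and 0.718 and 0.701 with sites within 2 kb joined and single sites. Chromosome 2 against the others, 0.982, passed the threshold with sites within 2 kb joined (0.892, adjusted p = 0.032, exact test) and single sites (0.828, adjusted p = 0.0003, exact test), where neighbouring sites count separately, and without chromosomes with fewer than 100 SRA sites (0.845, adjusted p = 0.0043, exact test). Its direction changed with the setting. The ratio was 1.13 with sites within 50 kb joined (adjusted p = 0.066, exact test). Without the stretch it was 1.1 (adjusted p = 0.1, exact test). Chromosome 3 against the others stayed between 1.13 and 1.4, past the threshold in every setting run. All these settings recount the same 2 lists and leave out the spread between chromosomes. Chromosome 3 had 0.671 SRA sites per p68 site, below chromosomes 1 (0.877), 11 (0.79), 16 (1.3) and 17 (1.54). The ratio was the lowest on chromosome 19, at 0.167. Neighbours within 2 kb and 50 kb were found for 15% and 60.4% of SRA sites and for 12% and 63.6% of p68 sites.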
